A study of Mus musculus with 6 samples.

Results

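A set of 10 genes of the Notch pathway was followed in testes of Dmrt1 null and control mouse embryos at E13.5. They comprise the receptors Notch1, Notch2 and Notch3, the ligands Jag1, Jag2 and Dll4, and the target genes Hes1, Hey1, Hey2 and Heyl. Members were all probe sets whose platform annotation gave exactly 1 of these gene symbols. All 10 genes had at least 1 probe set, 19 probe sets in all, among 18194 gene symbols on the array. Of these, 15 probe sets of 9 genes had a mean log2 intensity of at least 4 over the arrays and were tested, and both probe sets of Dll4 fell under that filter. Dmrt1 encodes a DM domain transcription factor of fetal Sertoli and germ cells, and the study asked how its loss changes expression in a strain where mutants often develop teratomas. There were 3 null and 3 control samples of testes, each with 1 oligonucleotide array. The titles do not say how many testes a sample held, and null testes and control testes below mean these samples. The null samples carry Dmrt(-,-) in their titles and Dmrt1 (-/-) in their descriptions, whereas their genotype entry reads Dmrt(flox/flox), and no Cre driver is named. The controls are called wt in their titles and heterozygous, Dmrt1 (+/-), in their descriptions and genotype entries. Both groups were outcrossed to 129S6/SvEvTac, and whole gonads were the starting material.

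Notch receptors are single-pass membrane proteins that are activated by Jagged and Delta-like ligands on a neighbouring cell. The bound receptor is cleaved, and its intracellular part enters the nucleus and joins the DNA-binding protein RBPJ to switch on target genes, among them the Hes and Hey families of transcriptional repressors. In the mouse fetal testis the pathway is known for holding interstitial progenitors back from becoming Leydig cells. In vessels it is known for arterial fate and for the contact between endothelial and mural cells.

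Dmrt1 itself followed the labels, with intensities of 48.4, 26.9 and 23.8 in null replicates 1, 2 and 3, against 696, 1030 and 796 in control replicates 1, 2 and 3 (log2 difference -4.72 ± 0.28, standard error, limma adjusted p = 0.00388, and 0.0558 without control replicate 3). The array medians were 14.6 to 14.8. All 9 Sertoli cell markers lay over the filter, and so did 4 of 5 ovarian somatic markers, with Foxl2 under it. Summed Sertoli markers were 12580 to 13440 in null testes and 15580 to 16850 in control testes. Of the 9, 5 were higher and 4 lower in the null, with a median log2 difference of 0.01. Only Cst9 was called, at -1.58 (limma adjusted p = 0.0271), beside 0.0272% of all tested probe sets. The sum weighs bright genes most. Cst9 had 860 to 1180 in null testes and 2940 to 3460 in control testes. Aard had 3920 to 4580 and 5530 to 6050, a difference of -0.43 (limma adjusted p = 0.474). Gata4 and Dhh were higher in the null, at 0.25 and 0.21. For Actb the 3' over 5' signal ratio, a sign of RNA integrity, was 1.91 to 2.75 in null testes, with the highest value in null replicate 3, and 1.92 to 2.15 in control testes. Whether the Dmrt1 probe set lies inside the deleted part of the gene could not be taken from the labels. The closing numbers in the sample descriptions run from 1 to 3 for the null and from 4 to 6 for the control samples, so any effect of that order cannot be told apart from the genotype. In these whole-gonad RNA samples, fewer cells of a type and less RNA per cell cannot be told apart.

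None of the 15 tested Notch probe sets was called at a limma adjusted p under 0.05, a count of 0, against 0.0272% of all 22082 tested probe sets. At an unadjusted p under 0.05 there was 1, a Notch3 probe set that was lower in the null, against 6.04% of all tested probe sets. The smallest adjusted p among the members was 0.773. By their brightest tested probe set, the 9 genes had a median log2 difference of null minus control of -0.11, beside 0.01 over all tested probe sets. The null and control groups did not overlap at 1 of the 15 tested probe sets, against 12.8% of all tested probe sets. Levels are linear intensities of a gene's brightest probe set unless stated, and differences are log2 values of null minus control with the standard error of the limma fit (n = 3 per group).

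**Figure D1:**
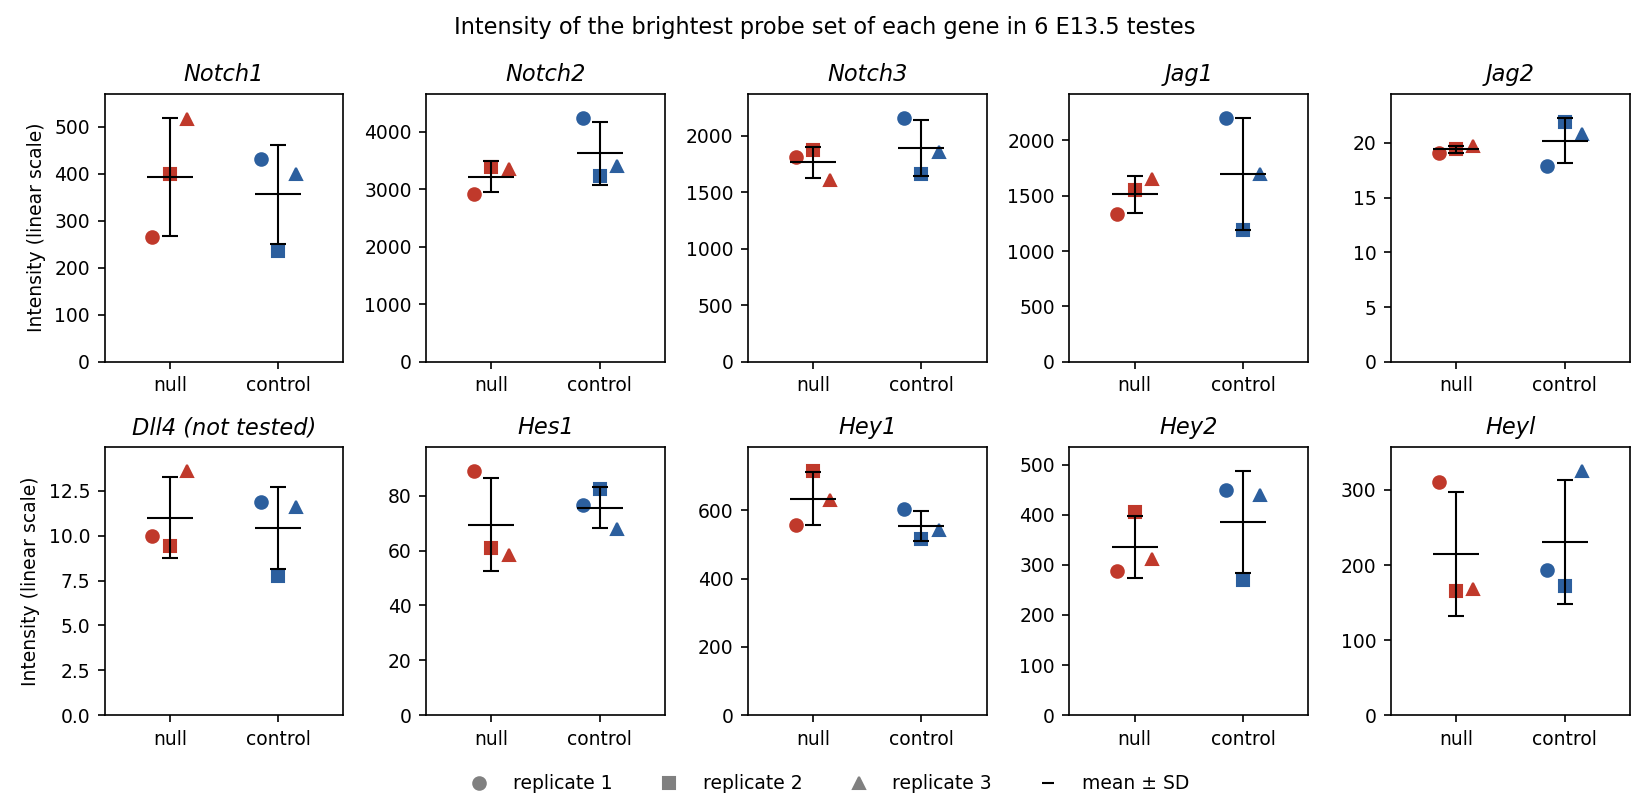
Intensity on a linear scale of the brightest probe set of each gene, with null testes on the left and control testes on the right of each panel, 1 symbol per replicate and bars for the mean ± SD (n = 3 each). The groups overlap in all 10 panels, and null replicate 1 and control replicate 2 are the lowest arrays of Notch1 and Jag1.

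The promoters of 3 members are shown. Notch1, Jag1 and Hey2 are among the members that were lowest in the same 2 arrays, and Hey2 is also a target gene whose window holds the core letters of the RBPJ recognition sequence. The sequences are from RefSeq (GRCm38.p6), run from 250 bases before to 20 bases after the annotated gene start, and are written on the strand of the gene. Capitals mark this core, TGGGAA, on either strand.
Hey2, chr10:30842764-30843033, minus strand: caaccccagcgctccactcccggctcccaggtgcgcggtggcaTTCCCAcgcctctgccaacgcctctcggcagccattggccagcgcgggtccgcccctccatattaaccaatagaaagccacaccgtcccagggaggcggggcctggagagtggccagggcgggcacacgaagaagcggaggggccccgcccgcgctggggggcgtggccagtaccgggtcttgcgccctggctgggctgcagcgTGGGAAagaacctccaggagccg
Notch1, chr2:26503803-26504072, minus strand: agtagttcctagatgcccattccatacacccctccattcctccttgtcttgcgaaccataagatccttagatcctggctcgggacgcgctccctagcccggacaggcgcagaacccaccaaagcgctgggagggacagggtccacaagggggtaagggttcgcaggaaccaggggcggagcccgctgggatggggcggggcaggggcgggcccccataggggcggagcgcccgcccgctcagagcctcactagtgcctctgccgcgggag
Jag1, chr2:137116501-137116770, minus strand: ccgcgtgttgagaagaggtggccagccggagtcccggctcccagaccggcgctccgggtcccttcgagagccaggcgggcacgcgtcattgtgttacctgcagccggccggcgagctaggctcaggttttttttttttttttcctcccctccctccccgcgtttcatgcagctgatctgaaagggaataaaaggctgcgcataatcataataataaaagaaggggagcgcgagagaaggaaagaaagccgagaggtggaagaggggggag
The Hey2 window held 2 matches that do not overlap. One lay on the opposite strand, from 207 to 202 bases before the start, and the other on the strand of the gene, from 3 bases before the start to 3 bases after it. The 2 other windows shown held none. Of the 10 members 7 had an entry in the promoter table, and Hey2 was the only 1 of these 7 with a match. The target genes Hes1, Hey1 and Heyl had no entry, so Hey2 was the only target gene searched. Over all 32851 promoters of the same length, 23.1% held at least 1 match and 3.17% at least 2.

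Notch1 varied more from array to array than Notch2 or Notch3. It had intensities of 266, 400 and 516 in null replicates 1, 2 and 3, against 432, 237 and 400 in control replicates 1, 2 and 3. The lowest values were in 1 null and 1 control array, and the highest was in a null array, so the groups overlapped throughout. The difference was 0.14 ± 0.30 (limma adjusted p = 0.927), with a 95% confidence interval of the fold from 0.687 to 1.77. A second Notch1 probe set had the same pair of lowest arrays, at 25.7 in null replicate 1 and 21.1 in control replicate 2, and a difference of 0.08 ± 0.25. The direction for Notch1 rested on single arrays: removing control replicate 2 gave -0.13 and removing null replicate 3 gave -0.08. Removing null replicate 1 kept the direction and gave 0.40.

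Notch2, a receptor expressed in many tissues of the embryo, was bright in every array. Its intensities were 2910, 3390 and 3360 in null replicates 1, 2 and 3, against 4240, 3230 and 3400 in control replicates 1, 2 and 3. Control replicate 1 stood above the other 5 arrays, which lay close together. The difference was -0.16 ± 0.11 (limma adjusted p = 0.792), and it was -0.04 without control replicate 1. The other Notch2 probe set was dimmer than the array medians and was not tested. It went the opposite way, at 8.34 to 8.70 in null testes and 7.46 to 8.29 in control testes, a difference of 0.12.

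Notch3, the receptor best known from mural cells of vessels, was the member whose probe sets came nearest to a difference. Its second probe set had 772, 831 and 670 in null replicates 1, 2 and 3, against 926, 839 and 981 in control replicates 1, 2 and 3. All 3 null testes lay below all 3 controls, with null replicate 2 just under control replicate 2. The difference was -0.28 ± 0.12, with an unadjusted limma p of 0.0451 and an adjusted p of 0.773. The brightest Notch3 probe set, whose type may cross-match similar transcripts, had intensities of 1810, 1880 and 1610 in null replicates 1, 2 and 3, against 2160, 1660 and 1860 in control replicates 1, 2 and 3. There the groups overlapped, and the difference was -0.09 ± 0.11 (limma adjusted p = 0.873). Summed over 10 mural cell markers, the level was 7140 to 8529 in null testes and 7225 to 8642 in control testes, so this list overlapped between the groups too.

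Of the ligands, Jag1, which acts in vessels and in many epithelia, had intensities of 1330, 1550 and 1650 in null replicates 1, 2 and 3, against 2200, 1190 and 1690 in control replicates 1, 2 and 3. The controls held both the highest and the lowest array, and the null testes lay between them. The difference was -0.13 ± 0.21 (limma adjusted p = 0.908), with a 95% confidence interval of the fold from 0.659 to 1.27. Leaving out control replicate 1 gave 0.08 and leaving out control replicate 2 gave -0.36. A second Jag1 probe set was likewise lowest in null replicate 1, at 110, and in control replicate 2, at 133, with the other arrays at 152 to 232 and a difference of -0.24 ± 0.28. The remaining Jag1 probe set, at 6.69 to 8.19, was dimmer than the array medians and not tested.

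Jag2, the other Jagged ligand, was dim but steady. It had 19.1, 19.4 and 19.7 in null replicates 1, 2 and 3, against 17.9, 21.9 and 20.8 in control replicates 1, 2 and 3. All 3 null values fell inside the range of the controls. The difference was -0.05 ± 0.15 (limma adjusted p = 0.948), and -0.05 ± 0.20 at the second probe set.

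Dll4, the Delta-like ligand of arterial and sprouting endothelial cells, had intensities of 10, 9.45 and 13.6 in null replicates 1, 2 and 3, against 11.9, 7.78 and 11.6 in control replicates 1, 2 and 3. All 6 values were lower than the array medians, and detection calls were not used here. The groups overlapped, and the difference was 0.09 with no test. When the filter was dropped, limma gave a standard error of 0.21 and an adjusted p of 0.964 for Dll4. Its second probe set, at 6.60 to 9.44, was also lowest in control replicate 2.

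The target genes had no common direction. Hes1, a repressor that acts in progenitor cells of many tissues, had 89.0, 61.1 and 58.4 in null replicates 1, 2 and 3, against 76.8, 82.5 and 67.9 in control replicates 1, 2 and 3. Null replicate 1 was the highest of all arrays and the other null testes were the lowest, so the spread among nulls enclosed the controls. The difference of Hes1 was -0.15 ± 0.20 (limma adjusted p = 0.890), and it ranged from -0.34 without null replicate 1 to -0.03 without null replicate 3.

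Hey1, a Hey family repressor found in vessels and in mesenchyme, had 558, 715 and 631 in null replicates 1, 2 and 3, against 604, 517 and 543 in control replicates 1, 2 and 3. Of the targets it was the one with the narrowest range over the arrays. Null replicates 2 and 3 exceeded all controls, whereas null replicate 1 lay inside their range. The difference was 0.19 ± 0.13 (limma adjusted p = 0.792), with a 95% confidence interval of the fold from 0.931 to 1.40, and it ranged from 0.10 to 0.28 with 1 array removed.

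Hey2, the family member tied to arterial identity and the one whose promoter is printed above, had 288, 406 and 312 in null replicates 1, 2 and 3, against 449, 269 and 439 in control replicates 1, 2 and 3. The controls again included the lowest and the highest array. The difference was -0.18 ± 0.23 (limma adjusted p = 0.882). It ranged from -0.42 without control replicate 2 to -0.05 without control replicate 1.

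Heyl, a Hey family gene known from vascular smooth muscle, had a pattern of its own. It had 310, 166 and 168 in null replicates 1, 2 and 3, against 194, 172 and 325 in control replicates 1, 2 and 3. Null replicate 1 and control replicate 3 were nearly level and well above the other 4 arrays. The difference was -0.11 ± 0.31 (limma adjusted p = 0.948), with values of -0.41 when null replicate 1 and of 0.17 when control replicate 3 was removed. With array weights it was -0.56. Both other Heyl probe sets were likewise highest in these 2 arrays, at 147 in null replicate 1 and 182 in control replicate 3 for one, and at 66.2 in null replicate 1 and 57.1 in control replicate 3 for the other. Their differences were 0.04 ± 0.25 and 0.02 ± 0.28.

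**Figure D2:**
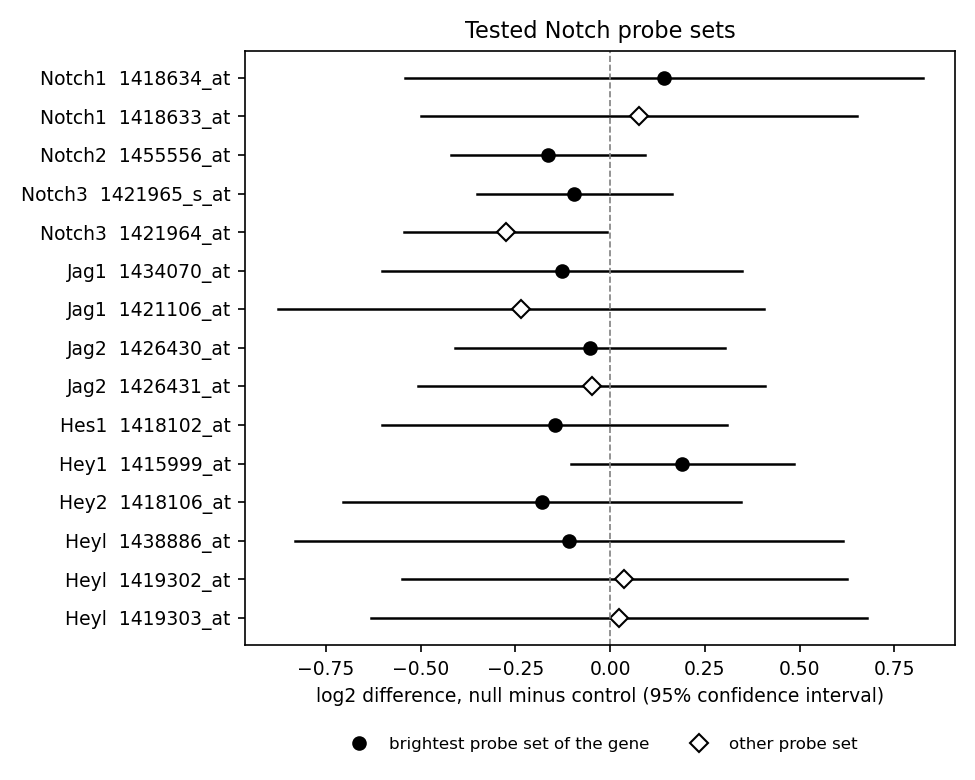
Log2 difference of null minus control for the 15 tested probe sets, with 95% confidence intervals from limma (n = 3 per group), filled circles for the brightest probe set of a gene and open diamonds for the others. Intervals cross 0 at 14 of them, and the exception is the second Notch3 probe set, whose interval ends at -0.01.

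The spread among single arrays was wide for several members. The log2 range over the 6 arrays was 1.12 for Notch1, 0.97 for Heyl, 0.89 for Jag1, 0.74 for Hey2 and 0.61 for Hes1, beside a median of 0.49 over all tested probe sets. It was 0.54 for Notch2, 0.47 for Hey1, 0.42 for Notch3 and 0.29 for Jag2. For comparison, the largest absolute difference between the group means among the brightest tested probe sets of the 9 genes was 0.19, for Hey1.

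Notch1, Notch2, Jag1 and Hey2 had their lowest values in the same 2 arrays, null replicate 1 and control replicate 2. These are 4 of the 9 tested genes, and the same 2 arrays were the lowest at 2977 of all 22082 tested probe sets. This arrangement was noticed in the data and is given as a description. Endothelial markers had it at 17 of their 19 tested genes, and erythroid markers at 4 of 6. Summed over the 20 endothelial markers, the level was 3941, 6373 and 7398 in null replicates 1, 2 and 3, against 6570, 2593 and 6165 in control replicates 1, 2 and 3. None of these markers was listed at 0, and Erg alone was under the filter. Summed erythroid markers, 8 genes, were 13440, 18130 and 18390 in null replicates 1, 2 and 3, against 19240, 10880 and 15010 in control replicates 1, 2 and 3, lowest in the same 2 arrays. All 6 tested erythroid markers were higher in the null, with a median of 0.35, and without control replicate 2 the count was 2 and the median -0.07. With null replicate 3 removed instead, 4 were higher. The part of blood cells in the Notch values was not tested. Other lists moved the opposite way in these 2 arrays. Summed germ cell markers, 10 genes, were 10080, 9005 and 8628 in null replicates 1, 2 and 3. In control replicates 1, 2 and 3 they were 8743, 12840 and 9424. That sum was highest in null replicate 1 and control replicate 2, where fetal Leydig markers, given below, were also high. Not every germ cell marker did so: Kit was lowest in these 2 arrays, at 155 and 166. The part of these cell types was not tested either. With the median endothelial level as a covariate, the Notch1 difference was -0.05 ± 0.12 (limma adjusted p = 0.900) in place of 0.14 ± 0.30. In that fit Notch2 was at -0.22 ± 0.08, Jag1 at -0.25 ± 0.10 and Hey2 at -0.30 ± 0.15, with limma adjusted p of 0.445, 0.453 and 0.497, and Hey1 was at 0.15 ± 0.11.

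The Heyl arrangement differed from the endothelial one. The same arrays, null replicate 1 and control replicate 3, were the highest 2 at 5.18% of all tested probe sets. They were also the highest in the summed mural cell level, with 8529 in null replicate 1 and 8642 in control replicate 3, against 7140 to 7251 in the other 4 arrays. The median over the mural markers, which weighs dim and bright genes alike, ordered the arrays differently, with centred log2 values of 0.12, -0.08 and 0.13 in null replicates 1, 2 and 3, against -0.18, -0.10 and 0.25 in control replicates 1, 2 and 3. Single mural genes differed too: Rgs5 had 636 in null replicate 1 and 1050 in control replicate 3, whereas Acta2 had 2500 and 2290 in these arrays. The highest Acta2 value, 2540, was in control replicate 2, where Heyl was low. Summed fetal Leydig markers, 4 genes, were 12950, 4182 and 3204 in null replicates 1, 2 and 3, against 4024, 9430 and 10320 in control replicates 1, 2 and 3. They were high in null replicate 1 and control replicate 3, and also in control replicate 2, where Heyl was low. The part of these cell types in the Heyl values was not tested.

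**Figure D3:**
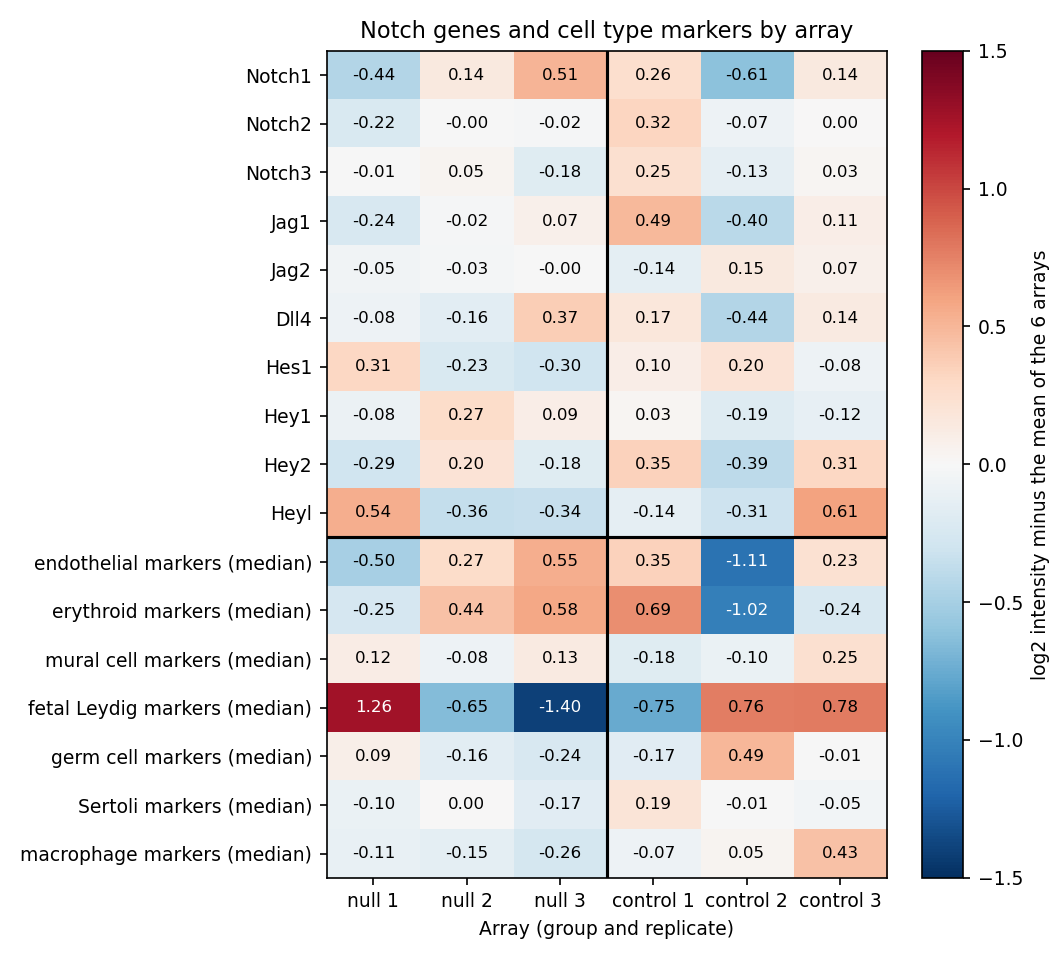
Log2 intensity centred on its mean over the 6 arrays, with null replicates on the left and control replicates on the right, for the brightest probe set of each Notch gene and, under the line, for the median of each cell type marker list. Notch1 at -0.44 in null replicate 1 and -0.61 in control replicate 2 runs with the endothelial median at -0.50 and -1.11, and Heyl is high in null replicate 1 and control replicate 3.

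The 3 members of widest range were set against other genes among the 19998 tested probe sets with 1 symbol. The measure was the mean absolute difference between centred log2 values over the 6 arrays. All genes were read from the same 6 arrays. Nearest to Notch1 were Foxp1, a forkhead factor, at 0.04, Eogt, a sugar transferase of the endoplasmic reticulum, at 0.04 and Prkch, a protein kinase C, at 0.05. Foxp1 had 457, 677 and 876 in null replicates 1, 2 and 3, against 679, 425 and 669 in control replicates 1, 2 and 3, low in the same 2 arrays. Nearest to Jag1 were Arhgef26 at 0.04, Dlc1 at 0.05 and Klf12 at 0.05. Nearest to Heyl, at larger distances, were Cavin2, a caveolar protein, at 0.11, Med9os at 0.11 and Hpca at 0.12.

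The wider pathway showed no called gene either. Of 54 further genes listed, 50 had a probe set and 45 were tested by their brightest one, with 23 higher and 22 lower in the null and a median difference of 0.01, as over all tested probe sets. None was called at a limma adjusted p under 0.05, a count of 0. At an unadjusted p under 0.05 there were 7, which is 15.6% of these genes. Of the 7, 3 were higher and 4 lower in the null, against 2.75% higher and 3.28% lower over all tested probe sets. The groups did not overlap at 8 of the 45, which is 17.8%, against 12.8% of all tested probe sets.

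Among the remaining receptor and ligands, Notch4, a receptor of endothelial cells, had the largest difference. It had 58.0, 66.7 and 76.0 in null replicates 1, 2 and 3, against 51.5, 29.3 and 51.8 in control replicates 1, 2 and 3. All null testes lay above all controls, and control replicate 2 stood apart at the low end. The difference was 0.64 ± 0.25, with an unadjusted limma p of 0.0335 and an adjusted p of 0.773. A second tested Notch4 probe set, at 51.1, 51.2 and 49.7 in null replicates 1, 2 and 3, against 44.0, 24.2 and 43.3 in control replicates 1, 2 and 3, gave 0.50 ± 0.24. Without control replicate 2 the brightest probe set was at 0.36, and with the endothelial level as a covariate it was at 0.50 ± 0.15 (limma adjusted p = 0.442). Endothelial markers as a list were higher in the null at 18 of 19 tested genes, beside 51.9% of all tested probe sets, with none called and a median difference of 0.21. That count rested on control replicate 2: without it, 2 of the 19 were higher and the median was -0.17. Without null replicate 3, 11 were higher and the median was 0.04. Dlk1, a Delta-like protein of fetal Leydig and progenitor cells, was at -0.14 ± 0.05 with overlapping groups. Dner, a Delta-like membrane protein, was at -0.42 ± 0.29, with values of -0.69 when control replicate 1 and of -0.25 when control replicate 2 was removed. The ligand Dll1 was at 0.13 ± 0.20.

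Genes that modify or degrade the pathway's components included the smallest unadjusted p of the wider list. Fbxw7, the ubiquitin ligase subunit that marks the intracellular part of Notch for degradation, had 1220, 1230 and 1140 in null replicates 1, 2 and 3, against 1580, 1640 and 1430 in control replicates 1, 2 and 3. The null testes were close to each other and all below the controls. Its difference was -0.37 ± 0.09, with an unadjusted limma p of 0.00261 and an adjusted p of 0.773, and it ranged from -0.43 to -0.33 with 1 array removed. A second Fbxw7 probe set was at -0.50 ± 0.42. Mfng, a fringe glycosyltransferase that tunes ligand preference, was at 0.56 ± 0.23, and at 0.32 without control replicate 2. Mib2, a ubiquitin ligase of Notch ligands, was at 0.34 ± 0.15, with groups that did not overlap. Lfng, another fringe enzyme, was at 0.01 ± 0.17.

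The proteases that cut the receptor had small differences by their brightest probe sets. All 8 tested genes lay between -0.14 and 0.08 there, and none had an unadjusted p under 0.05. The smallest p among them were those of Adam17, the sheddase, at -0.12 ± 0.10, and of the gamma-secretase subunits Psenen at 0.08 ± 0.08 and Aph1a at 0.07 ± 0.08. Other probe sets differed more, such as -0.49 ± 0.24 for Aph1b, -0.32 ± 0.19 for Adam10 and 0.27 ± 0.16 for Aph1a.

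Of 14 tested genes of the nuclear complex, 6 were higher and 8 lower. Rbpj, the DNA-binding partner of Notch, had 1380, 1450 and 1460 in null replicates 1, 2 and 3, against 1600, 1460 and 1540 in control replicates 1, 2 and 3. The groups met at a single shared value, and the difference was -0.10 ± 0.08 (limma adjusted p = 0.811). Another Rbpj probe set was at -0.28 ± 0.15, with all null testes below all controls, and a dimmer signal. A further one was at -0.16 ± 0.16 with overlapping groups. Tle2, a corepressor of the Groucho family, was at 0.53 ± 0.17 with an unadjusted limma p of 0.0138, and at 0.325 with 16 added to every intensity. Tle4, of the same family, was at -0.21 ± 0.08 and the acetyltransferase Crebbp at -0.18 ± 0.07. All of these had a limma adjusted p of 0.773 or more. Of the remaining listed genes, Hes6, which opposes Hes1 in neural cells, was at 0.36 ± 0.18, and at 0.17 without null replicate 1. Nrarp, a feedback inhibitor of the pathway, was at 0.02 ± 0.23. Hes5 and Hes7 lay under the filter.

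**Figure D4:**
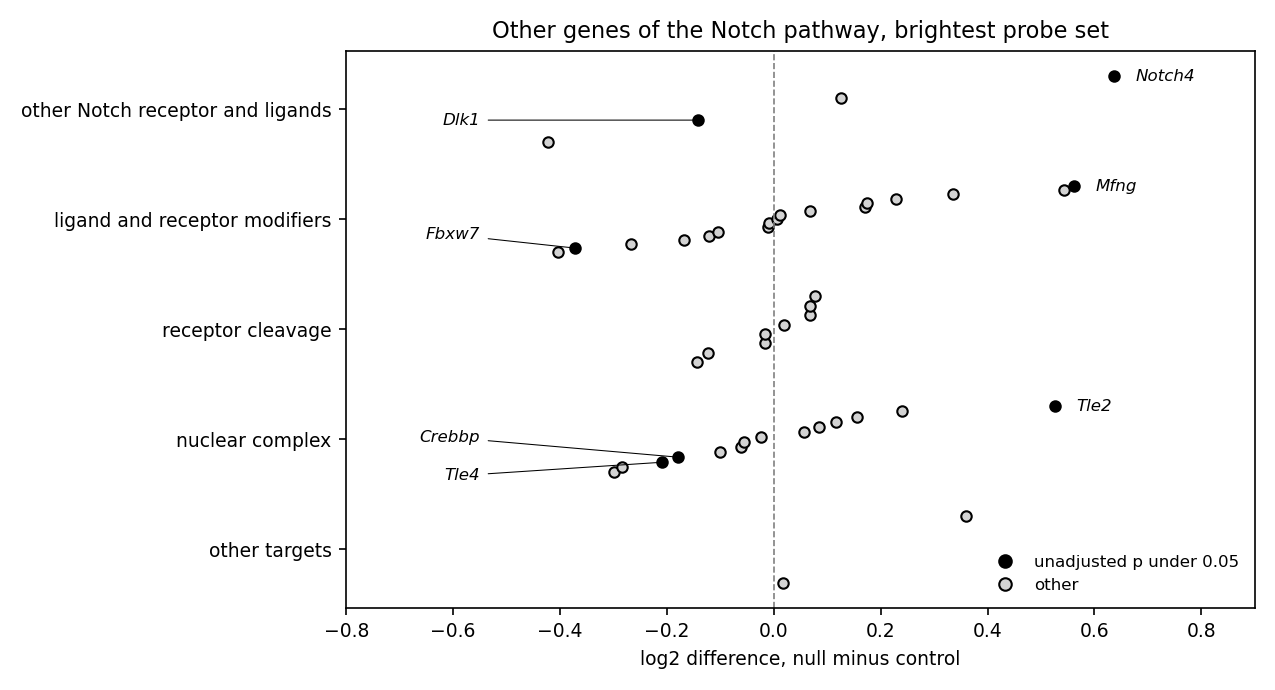
Log2 difference of null minus control for the brightest probe set of the 45 tested genes of the wider pathway, by role, with filled points and names for the 7 genes with an unadjusted limma p under 0.05. Notch4 lies farthest to the right at 0.64, and the receptor cleavage genes lie between -0.14 and 0.08.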

How the data were processed

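Gonads were dissected at E13.5 and kept in RNAlater, and their RNA (Allprep Micro) was amplified and biotin-labelled from 100 ng (NuGen Ovation), as the labels' protocols state. The authors deposited linear intensities made with GCRMA, per the submitters' processing notes, which name no version. This method corrects background and normalizes between arrays, so folds between dim values depend on it. Detection calls were not used here.

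The table held 45101 probe sets, 34958 with 1 gene symbol, 932 with several and 9211 with none, and no gene was named from several symbols. Arrays were grouped by title. The intensities were log2-transformed without a constant, and the 22082 probe sets with a mean of at least 4 were fitted in limma 3.58.1 (R 4.3.3) by group alone, using eBayes with trend and adjusting p-values over all of them by Benjamini-Hochberg. Tests were two-sided, and calls needed an adjusted p under 0.05. The fit was tested on simulated data. Precision is limited by the 3 arrays in each group. Between any 2 arrays 301 to 451 values were equal, so none copied another. The replicates are labelled biological. The p-values set each group difference against the spread between these samples, which limma moderates with that of all tested probe sets.

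All members were named, and from each list of the wider pathway the 3 tested genes of smallest p, besides Notch4, Dll1, Dlk1, Rbpj, Lfng and Nrarp. Hes5, Hes7, Erg and Foxl2 were named as genes under the filter. Cst9, Aard, Gata4, Dhh, Kit, Rgs5, Acta2, Aph1b and Adam10 were named after their values were seen. Counts of endothelial and erythroid markers with single arrays removed were also added after seeing the data. Members and lists were chosen with earlier results of these data known.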

Additional observations from a re-analysis of the deposited data

How the results depend on the processing

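No Notch member and no gene of the wider pathway was called under any alternative run: quantile normalization, median centring, no filter, a minimum mean of 6, adding 16, no trend, robust eBayes, array weights, the replicate block, the endothelial covariate, removal of any 1 array, the mean over probe sets and a threshold of 0.10. Of all tested probe sets 6 were called, 1 without the trend, 0 with the replicate block and 0 to 4 with any 1 array removed. The labels do not say whether the replicate numbers pair the samples. The correlations of same-numbered deviations were -0.587, -0.339 and 0.145 for replicates 1, 2 and 3. Null replicate 1 with control replicate 2 had 0.579. The deviations are from means of 3 arrays, so these correlations cannot show whether same-numbered samples shared a litter. The paired fit called no member (Dmrt1 itself had a limma adjusted p of 0.200 there).

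Leaving out single arrays moved the log2 difference from -0.129 to 0.398 for Notch1, -0.185 to 0.00468 for Notch3, -0.359 to 0.0847 for Jag1, -0.138 to 0.00767 for Jag2, -0.406 to 0.168 for Heyl, -0.00597 to 0.326 for Dll1, -0.133 to 0.117 for Lfng and -0.256 to 0.217 for Nrarp. Array weights gave -0.562 for Heyl, beside -0.109. Signs also turned for Notch1 at -0.048 and Nrarp at -0.110 with the endothelial covariate, for Lfng at -0.0064 with quantile normalization, -0.000644 with median centring and -0.0281 with array weights, and for Nrarp at -0.217 with array weights and -0.0241 as the mean over probe sets. The brightest probe sets of Notch2, Hes1, Hey1 and Hey2 kept their sign throughout. The minimum mean of 6 left no value for Jag2, Notch4, Dll1, Mib2 and Tle2. The causes were not tested. Dll4 and Jag2 are dim, so their folds depend on the background correction.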
